A study of Mus musculus with 5 samples.

Results

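The genes Jun, Junb, Jund, Fos, Dusp1 and Nfkbia were followed across 4 libraries of sorted mouse CD4 T cells. They were chosen by name as subunits of the transcription factor AP-1 and as immediate early genes. The tables list 10291 genes in all, and 5 of the 6 are among them. Jund, the remaining Jun-type subunit, had no line in the tables analysed here, so no level of it is given and it adds nothing to any sum.

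AP-1 is a dimer in which a Jun-type subunit pairs with itself or with a Fos-type subunit through a leucine zipper and binds DNA at a short palindrome. Immediate early genes are those transcribed soon after a stimulus without new protein synthesis, and their messages are short-lived. In T cells they are known to follow antigen receptor and cytokine signals through MAP kinases, and they also appear when cells are stressed or taken out of tissue. Dusp1 encodes a phosphatase that inactivates MAP kinases, and Nfkbia encodes IκBα, which holds NF-κB in the cytoplasm and is itself an NF-κB target. Both are feedback inhibitors.

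Mice with autoimmune colitis gave the cells of all groups. The light groups received 980 nm laser light for 5 min every 2 days (power 1.22 W, duty 80%, spot 4 cm2), and the control groups are labelled only as control. The CD4 T cells came from a lymph node or from the colon. The 4 groups are called node control, node light, colon control and colon light below, and each has 1 library. The labels give no strain, age, sex, way of inducing colitis or number of mice, and they do not say when after the last exposure the cells were taken. With 1 library per group there is no replicate spread and no p-value between groups. Each interval below is an exact 95% interval that covers counting error only.

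The messages were primed at their poly(A) tail with a probe that carries a barcode of 7 bases and a molecular identifier of 8 bases, so a count stands for a 3′ end and was not divided by gene length. Each table has 379 to 384 barcode columns, but the same molecule is counted in many columns at once, by 50.6 to 84.3 columns per molecule after weighting by size. Summed counts were therefore divided by that number to give molecule-equivalents. Depth came to 6129 molecule-equivalents in colon control, 37704 in colon light, 11516 in the node control and 21143 in the node light library. A count of 0 allows up to 3 molecule-equivalents, which is 489, 79.6, 260.5 and 142 CPM in that order, where CPM is a count scaled to a library total of 1000000. The colon control library stood apart. It was the shallowest, it shares at most 5 barcodes with any other table while the others share 373 or 374 of theirs with each other, and Cd3d, Cd3e, Cd3g and Cd4 repeat values of another table there by column position and were left out of it, as Foxp3 was in all 4. The lines of the genes followed here showed no such repeat, with correlations by position of at most 0.0572.

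The stretches upstream of 3 of the genes are shown because Jun, Fos and Nfkbia are those whose interval lay above 0 when the colon light library was set against the node light library. Each run holds the 250 bases before the annotated start, 5′ to 3′ on the strand of the gene, from RefSeq on build GRCm38.p6. Capitals mark matches, on either strand, to an AP-1 site (TGANTCA), a cyclic AMP response element or its AP-1-like form (TGACNTCA), the half-site of that element (TGACG, which also lies within TGACGTCA), a TATA box (TATAAA), the NF-κB consensus or a CArG box. Jun lies at chr4:95052223-95052472 on the minus strand, Fos at chr12:85473640-85473889 on the plus strand and Nfkbia at chr12:55492648-55492897 on the minus strand.
Jun: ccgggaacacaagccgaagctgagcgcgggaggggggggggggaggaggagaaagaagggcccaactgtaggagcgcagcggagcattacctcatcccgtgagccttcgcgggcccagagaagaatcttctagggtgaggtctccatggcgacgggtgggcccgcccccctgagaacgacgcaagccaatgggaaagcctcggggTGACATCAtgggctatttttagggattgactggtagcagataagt
Fos: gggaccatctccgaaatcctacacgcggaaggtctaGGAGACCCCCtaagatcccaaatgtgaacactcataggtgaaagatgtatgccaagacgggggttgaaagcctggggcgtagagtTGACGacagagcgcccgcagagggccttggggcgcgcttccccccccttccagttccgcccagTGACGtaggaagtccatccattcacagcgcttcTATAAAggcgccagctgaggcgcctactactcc
Nfkbia: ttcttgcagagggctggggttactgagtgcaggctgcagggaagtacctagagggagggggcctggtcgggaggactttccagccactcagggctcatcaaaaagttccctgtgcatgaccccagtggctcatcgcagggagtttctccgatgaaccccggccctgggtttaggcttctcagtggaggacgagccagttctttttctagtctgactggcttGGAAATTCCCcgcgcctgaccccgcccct

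The Jun stretch holds TGACATCA from base 45 to base 38 before the start, and TGACNTCA is found in 7.49% of 32851 promoter stretches of this length. The Fos stretch holds TGACG at 129 to 125 and at 66 to 62 bases before the start, a TATA box at 33 to 28 and an NF-κB consensus match at 214 to 205. TGACG occurs in 17.8% of all stretches, TATAAA in 12.4% and the NF-κB consensus in 3.90%. Nfkbia holds the NF-κB consensus from base 29 to base 20 before its start. In Dusp1 TGACGTCA was found at 143 to 136 bases before the start with a further half-site at 191 to 187, and in Junb a half-site at 106 to 102. No stretch of the 6 genes matched TGANTCA, which is in 6.75% of all stretches, or the CArG box, which is in 1.47%, and the Jund stretch matched none of the motifs. That stretch, chr8:70697489-70697738, lies before the RefSeq start of Jund. It ends well upstream of the GENCODE start at 70698949, and the bases next to the GENCODE start were not searched. These are letter matches in a fixed window. No binding was measured.

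Jun encodes the founding AP-1 subunit, c-Jun, on chromosome 4 (mm10 chr4:95049034-95052222, minus strand). It had no count in colon control, 678 CPM in colon light (441 to 997), 91.6 CPM in the node control (2.74 to 492) and 139 CPM in the node light library (28.2 to 411). The colon light level was the highest, and its interval overlapped that of the node control and the 489 CPM that a count of 0 allows in colon control, but not that of the node light library. Resolved into molecules, these values were 37 in the colon light library, 1 in the node control and 4 in the node light library. The 37 molecules came from 31 different column patterns, at most 3 from one pattern, and every one of the 382 columns held Jun counts.

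Junb (chr8:84974484-84978718, minus strand) encodes a Jun-type subunit that activates less strongly than c-Jun on many promoters. It was at 0 in colon control, 349 CPM in colon light (186 to 594), 74.1 CPM in the node control (1.09 to 461) and 116 CPM in the node light library (18.8 to 375). All 3 intervals above 0 overlap. The colon light value rests on 19 molecules, each from a different pattern, against 1 and 3 in the lymph node libraries.

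Fos (chr12:85473890-85477273, plus strand) encodes c-Fos, the partner that cannot pair with itself and needs a Jun-type subunit. It had counts in the colon light library only, at 329 CPM (172 to 569) from 16 molecules in 15 patterns, and was at 0 in the other 3. Those zeros allow up to 489 CPM in colon control, 260.5 CPM in the node control and 142 CPM in the node light library, so only the last of them lies below the interval of the colon light library.

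Dusp1 (chr17:26505590-26562128, minus strand) was at 148 CPM in colon control (2.67 to 882), from 1 molecule, and at 208 CPM in the colon light library (89.1 to 413), from 10 molecules in 9 patterns. Both lymph node libraries held no count of it. The colon libraries do not differ beyond their intervals. The gene span given here is that of GENCODE. The RefSeq stretch searched for motifs, chr17:26508473-26508722, lies within that span, so the motif positions count from another start.

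Nfkbia (chr12:55489410-55492647, minus strand) had a count in every library, the only one of the genes that did. Its levels were 104 CPM in colon control (0.418 to 803), 605 CPM in colon light (383 to 909), 219 CPM in the node control (36.9 to 698) and 167 CPM in the node light library (40.9 to 453). These correspond to 1, 28.1, 3 and 5 recovered molecules. Its colon light line was the only line of the genes that did not resolve exactly, missing by 0.912% of its size, and all 4 intervals overlap.

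**Figure D1:**
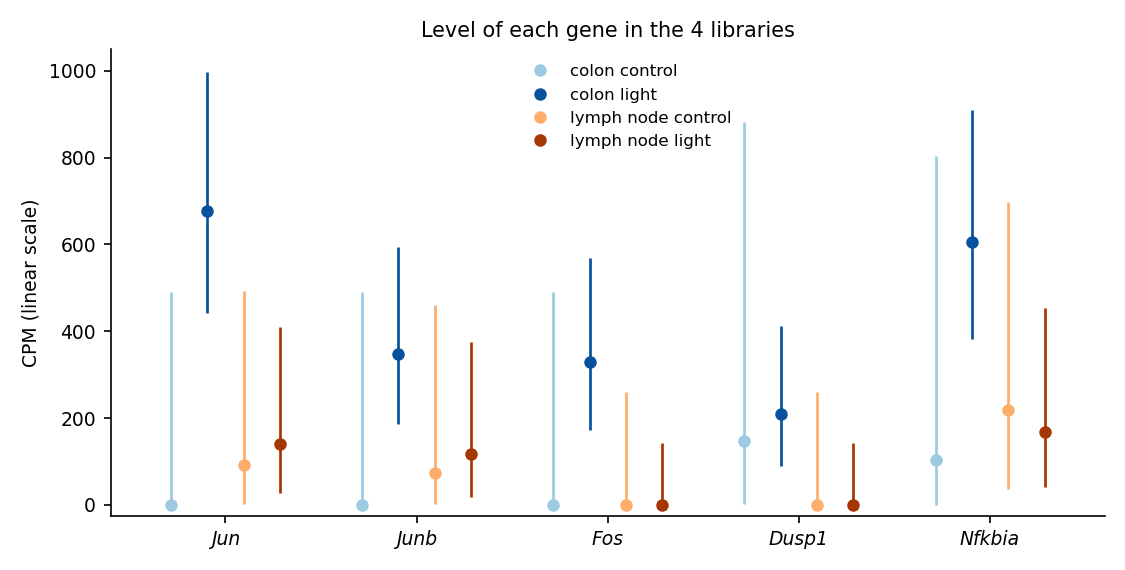
Level of each gene with a count in CPM (linear axis) in colon control, colon light, node control and node light libraries, 1 library each; points are levels and lines exact 95% counting intervals, and for a count of 0 the line runs to the level that 3 molecule-equivalents would give. The colon light points are the highest for every gene, from 208 CPM for Dusp1 to 678 CPM for Jun, and for Jun and Fos the colon light line lies wholly above the node light line. For Fos this rests on the limit of 3 molecule-equivalents, since the exact 95% interval of a count of 0 would reach the colon light line.

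**Figure D2:**
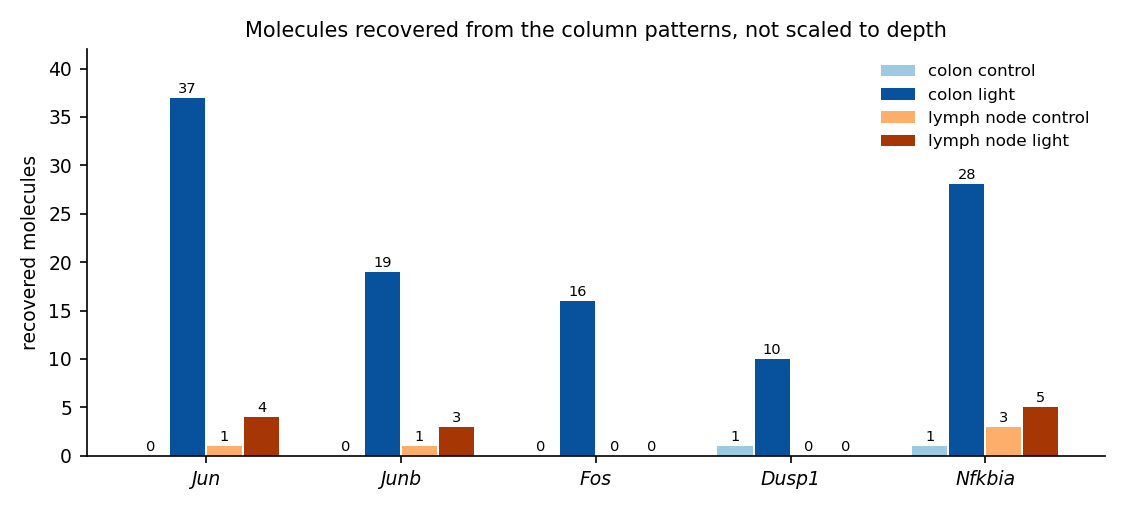
Molecules recovered for each gene in each library (linear axis from 0, not scaled to depth). The colon light library holds 37 molecules of Jun and 28 of Nfkbia, rounded, and no other library holds more than 5 of any gene.

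Summed over the genes, the level was 251 CPM in colon control (19.1 to 1057), 2169 CPM in colon light (1725 to 2692), 385 CPM in the node control (114 to 943) and 423 CPM in the node light library (193 to 804). In order, the colon light library stood highest, followed by node light, node control and colon control. The colon light interval overlaps none of the others, while the other 3 do not differ beyond their intervals. The colon light sum rests on 110 molecules spread over 82 of the 282 column patterns of that library, at most 5 from 1 pattern. The sums of the other libraries rest on 2, 5 and 12 molecules for the colon control, node control and node light. In sorted cells measured in bulk, more cells that carry a message and more message per cell cannot be told apart.

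Light was set against control within the lymph node first. The summed log2 ratio of CPM, node light over node control, was 0.13, with an interval from -1.66 to 2.18. That interval spans a fall and a rise past 2-fold, so a change of that size was not detectable at this depth. Nfkbia had a log2 ratio of -0.34 (-3.18 to 2.69), and for Jun and Junb both libraries were at or under 3 molecule-equivalents and no ratio is given. Of the genes, only Nfkbia reached 5 molecule-equivalents over both libraries, and its interval included 0. Over all genes tested, 1.47% lay above 0 and 3.15% below.

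Between the light-exposed tissues the genes were higher in the colon. Their summed log2 ratio, colon light over node light, was 2.31 (1.36 to 3.54), which is 4.97-fold. Without Jun it was 2.33 (1.18 to 3.90), and for the AP-1 subunits alone 2.33 (1.13 to 4.02). Jun had a log2 ratio of 2.15 (0.56 to 4.68) and Nfkbia one of 1.75 (0.23 to 4.00), whose interval began at -0.19 when the colon light library was thinned to the depth of the other. Thinning was random and drawn separately for each result, here and below, so another draw could give another bound. Fos, at 0 in the node light library, stood in the colon light at 2.32 times the level that 3 molecule-equivalents would give there, and the interval of its log2 ratio began at 0.69. Dusp1 stood at 1.47 times that level, and its interval began at -0.10. The interval of Junb, 1.46 (-0.41 to 4.37), included 0. The calls of Dusp1 and Junb depended on the setting: with each recovered molecule counted once the interval of Dusp1 began at 0.31 and that of Junb at 0.04, and with median-of-ratios scaling that of Dusp1 began at 0.15. At 20 molecule-equivalents or more over both libraries, 2 of the genes were tested, Jun and Nfkbia, and both intervals lay above 0, as did 10.5% of all genes tested. At 5 or more, 3 of 5 lay above 0, beside 3.70% of all genes, and none below, beside 10.3%. The genes reach these minimums through their colon light counts, so these numbers describe them and add no support. The median log2 ratio of all genes at 20 or more was -0.36. Tissue is the labelled difference, and the same pair also differs in the marker genes described further on.

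Light against control in the colon gave a summed log2 ratio of 3.00 (0.99 to 6.85), from 1.54 molecule-equivalents in the colon control. Jun stood in the colon light at 1.39 times the level that 3 molecule-equivalents would give in the colon control. The interval of its log2 ratio began at 0.07, and at -1.28 with the colon light library thinned. For Junb and Fos the colon light level lies under what a count of 0 allows in colon control, and their intervals began at -0.995 and -1.09. Dusp1 had a log2 ratio of 0.44 (-2.51 to 6.45) and Nfkbia one of 2.31 (-0.55 to 10.55). Of the 2 genes tested at 20 molecule-equivalents 1 lay above 0, Jun, beside 40.4% of all genes, and at 5 or more it was 1 of 5 beside 8.06%, with none below beside 8.94%. The median log2 ratio of all genes at 20 or more was 2.19, and 3.00 is to be read beside it. Many genes had no count in the shallow colon control. At 5 or more, 576 of 1018 genes were at 0 in one of the libraries, and the median of 2.84 became -0.91 with those genes set to their ratio against 3 molecule-equivalents. The median of the 5 genes followed here went from 3.95 to 0.44 in the same way. The light ratios of the lymph node and the colon were not tested against each other, since no group has a replicate.

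Without light, colon control over node control gave a summed log2 ratio of -0.52 (-4.68 to 2.28). None of the genes reached 5 molecule-equivalents over those libraries, and each was at or under 3 in both. The background there was 18.5% of genes above 0 and 29.4% below.

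Other AP-1 subunits and partners had few counts. Of 17 such genes, 13 had a count in the colon light library and 6 in the node light library, and the log2 ratio of their sum was 0.94 (0.00 to 2.04). Of the 3 tested at 5 molecule-equivalents, no interval excluded 0, and their median log2 ratio was 0.76, or 0.14 with genes at 0 set to their bound, beside -0.29 for all genes. Fosb, a Fos-type subunit, was at 156 CPM in the colon light library from 10 molecules and at 0 elsewhere. Maf, a leucine zipper factor of helper T cells, was at 323 CPM in both light libraries. It was at 74.1 CPM in the node control and 0 in the colon control, where a count of 0 allows up to 489 CPM. The lymph node levels of Maf rest on 7 molecules with light and 1 without. Its interval for light over control included 0 in the lymph node and in the colon, so no light difference was detectable for it. Atf4 and Atf3, stress-induced zipper factors, were at 142 CPM and 95.4 CPM in the colon light and at 76.7 CPM and 47.7 CPM in the node light library.

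Among 35 other immediate early genes, 28 had a count in the colon light library and 14 in the node light library, and their summed log2 ratio was 1.08 (0.69 to 1.50). Of 14 tested at 5 molecule-equivalents, 5 lay above 0, beside 3.70% of all genes, and 1 below, beside 10.3%. Their median was 1.65, or 1.35 with bounds. Genes that reach that minimum through their colon light counts add no support here either. Btg1, an antiproliferative gene, had 1985 CPM in the colon light and 764 CPM in the node light library, a log2 ratio of 1.36 (0.59 to 2.25). Its relative Btg2 had 338 CPM and 21.5 CPM, a log2 ratio of 3.21 (0.40 to 15.00). Pim1, a survival kinase, had 546 CPM and 166 CPM, a log2 ratio of 1.62 (0.07 to 3.88). Rgs1, which dampens chemokine receptor signals, and Klf6, a zinc-finger factor, had 433 and 361 CPM in the colon light and 0 in the node light library. These are 3.05 and 2.54 times the level of 3 molecule-equivalents there, and the intervals of their log2 ratios began at 1.15 and 0.85. Id2, an inhibitor of helix-loop-helix factors, went the other way, with 522 CPM in the colon light against 1402 CPM, a log2 ratio of -1.40 (-2.33 to -0.56). Mcl1, an anti-apoptotic gene, had 323 CPM and 200.2 CPM, a log2 ratio of 0.64 with an interval that included 0. Light over control in the lymph node gave -0.12 for the sum of the list (-0.71 to 0.49), and no gene of it lay beyond 0. In the colon, light over control, 1 of 11 lay above 0, Btg1, at 2.78 (0.82 to 6.42), beside 8.06% of all genes at 5 molecule-equivalents. Btg1 also reached 20, where 40.4% of all genes lay above 0 and the median log2 ratio of all genes was 2.19.

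The MAP kinase cascade lies upstream of AP-1, and the MAP kinases at its end are the substrates of Dusp1. Summed over 28 genes of the cascade and its phosphatases, the level was 1205 CPM in the colon light and 1414 CPM in the node light library, a log2 ratio of -0.23 (-0.93 to 0.49). Of 7 tested, no interval excluded 0 and the median was 0.19, or -0.04 with bounds. Dusp5, a phosphatase of ERK, was at 733 CPM in colon control, 312 CPM in colon light, 160 CPM in the node control and 143 CPM in the node light library. Dusp10, a phosphatase of JNK and p38, was at 351 CPM, 166 CPM, 101 CPM and 144 CPM in the same order. Map2k2 and Map2k7, kinases of the cascade, were at 58.2 and 75.5 CPM in the colon light and at 172 and 135 CPM in the node light library.

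NF-κB subunits, inhibitors and targets without Nfkbia had a summed level of 3920 CPM in the colon light and 1380 CPM in the node light library, a log2 ratio of 1.49 (0.93 to 2.13) over 24 genes. The median of 13 tested was 1.08, or 0.94 with bounds. None lay below 0, beside 10.3% of all genes, and 3 lay above, beside 3.70%. These were Il1b, a cytokine gene typical of myeloid cells, with 603 against 57.1 CPM (3.07, 0.96 to 8.00), Tnfaip3, the feedback inhibitor A20, with 442 against 58.9 CPM (2.60, 0.43 to 7.41), and Nfkbiz, an atypical nuclear IκB, with 299 against 32.7 CPM (2.67, 0.05 to 10.65). Intervals of the subunit gene Nfkb1 (0.33, -1.52 to 2.56), the adaptor gene Traf1 (0.52, -0.98 to 2.32) and the survival gene Bcl2a1b (0.79, -0.49 to 2.34) included 0, and Bcl2a1b has near-identical copies that counting could split. In the lymph node, light over control, the summed log2 ratio of the list was -0.25 (-1.13 to 0.67).

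**Figure D3:**
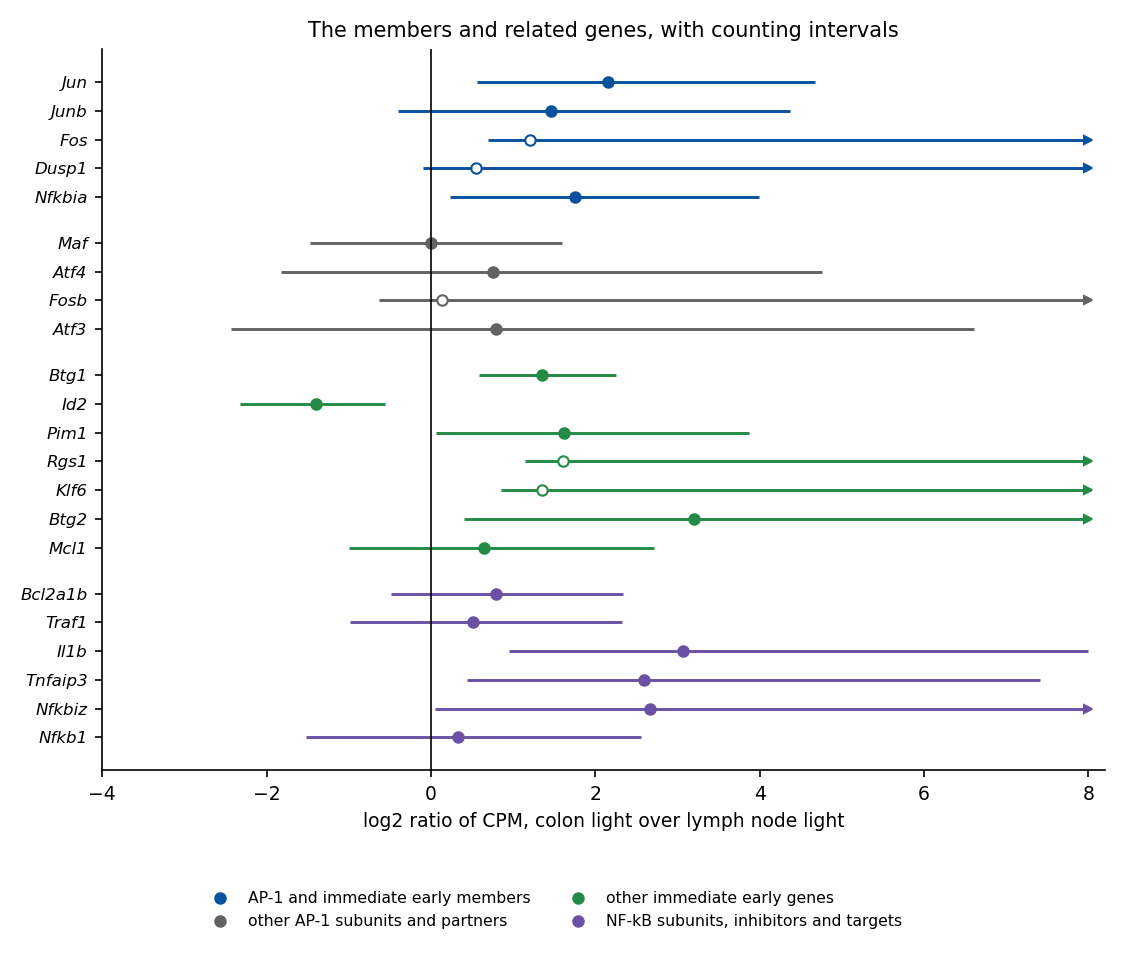
Log2 ratio of CPM, colon light over node light, for the members with a count and for named genes of 3 related lists, 1 library each; filled points are ratios, open points the ratio against 3 molecule-equivalents where the node light library had no count, lines exact 95% counting intervals and arrows intervals that run on. Jun, Fos and Nfkbia lie above 0, as do 5 of the immediate early genes and 3 of the NF-κB genes, and Id2 lies below.

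Heat-shock chaperones, another group that responds to stress, summed in the light libraries to 6563 CPM in the colon and 4947 CPM in the lymph node over 13 genes, a log2 ratio of 0.41 (0.07 to 0.75). Their median over 10 tested genes was 0.76, or 0.70 with bounds. Hspa5, the chaperone of the endoplasmic reticulum, lay above 0 with 1279 against 404 CPM (1.62, 0.60 to 2.91), and Hspa8, a constitutive chaperone, lay below with 794 against 1411 CPM (-0.82, -1.61 to -0.05). Hsp90ab1, also constitutive, had 1857 and 1838 CPM (0.02, -0.57 to 0.62), the inducible Hsp90aa1 had 862 and 521 CPM (0.71, -0.30 to 1.86), and the co-chaperone Dnaja1 had 537 and 247 CPM (1.07, -0.31 to 2.85). Light over control in the lymph node gave -0.09 (-0.56 to 0.39) for the list. In the colon, light over control, 3 of 10 chaperones lay above 0, namely Hspa5, Hsp90aa1 and Hsp90ab1, beside 8.06% of all genes at 5 molecule-equivalents. All 3 are among the 5 chaperones that reached 20, where 40.4% of all genes lay above 0.

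Myeloid and class II markers were also highest in the colon light library, while the stromal sum, led by Vim, was not. Of 18 myeloid markers, 11 had a count in the colon light and 7 in the node light library, and their sum was 673, 2628, 871 and 765 CPM in colon control, colon light, node control and node light libraries, with a log2 ratio of colon light over node light of 1.76 (1.01 to 2.64). Lyz2, the macrophage lysozyme, led them with 1198 CPM in the colon light and 293 CPM in the node light library (1.97, 0.81 to 3.53). Fcer1g, an Fc receptor chain, had 459 and 123 CPM (1.77, 0.02 to 4.55). The macrophage genes Csf1r, C1qa and Aif1 had 129, 103 and 88.3 CPM in the colon light and no count in the node light library, with intervals that included 0. In the colon light library Cd68, Itgam, Adgre1, Cd14, Csf3r, S100a8 and S100a9 were at 0. The 12 B-cell and class II markers summed to 574, 2011, 1013 and 194 CPM in the same order. Nearly all of the colon light value came from the antigen presentation genes Cd74 (609 CPM), H2-Eb1 (556 CPM), H2-Ab1 (475 CPM) and H2-Aa (351 CPM), and the list was higher there than in the node light library by 3.27 on the log2 scale (1.97 to 5.26). Within the lymph node the list was lower with light, at -2.22 (-4.46 to -0.67). Of the B-cell genes Cd79a, Cd79b and Ms4a1 were at 0 in all 4 libraries, but the immunoglobulin genes were not. Igkc was at 231 CPM in colon control, 20.4 CPM in colon light, 324 CPM in the node control and 0 in the node light library, and its interval for light over control in the lymph node ended at -0.12. Ighm was at 125 CPM in colon control and 34.6 CPM in the node light library. The 10 stromal and endothelial markers summed to 73.8, 409, 511 and 979.6 CPM in the order of the myeloid markers, a log2 ratio of colon light over node light of -1.23 (-2.31 to -0.24). Vim, which encodes vimentin and is expressed by many kinds of cell, accounts for all of the lymph node values and had 289 CPM in the colon light (-1.70, -2.97 to -0.64). Col1a2, Col3a1, Pecam1 and Sparc went the other way, with 43.9, 38.3, 25.5 and 12.8 CPM in the colon light and no count in either lymph node library. Their intervals for colon light over node light included 0, and Col1a2 had 73.8 CPM in colon control. T-cell identity genes ran opposite to the AP-1 genes between the light libraries, with 3855 CPM in the colon and 9668 CPM in the lymph node over 19 genes, a log2 ratio of -1.32 (-1.64 to -1.01). Cd4 itself was at 186, 478 and 334 CPM in the colon light, node control and node light libraries, and it was left out in the colon control. For light over control in the colon, the T-cell sum was also higher with light: the 15 that could be used summed to 3165 CPM with light and 1174 CPM without, a log2 ratio of 1.41 (0.36 to 2.76). That ratio is to be read beside the median of all genes at 20 or more molecule-equivalents, 2.19. At 5 or more, 1 of 10 T-cell genes lay above 0, beside 8.06% of all genes. Mitochondrial ribosomal RNA made up 1.13%, 7.05%, 2.09% and 3.82% of the 4 libraries in the same order as the markers. Epithelial markers were at 0 in every library, 0 of 13 with a count, and of 7 mast-cell and granulocyte markers only Kit had a count, in the node light library. Of 6 CD8 and natural killer markers 3 had a count in the colon light library and 1 in each lymph node library. Cd8a was at 0 in every library, Cd8b1 was at 15.8 CPM in colon light, Klrd1 at 15.8 CPM in colon light and 63.6 CPM in node light, and Eomes at 68.4 CPM in colon light and 99.9 CPM in the node control. The part of these markers in the AP-1 result was not tested.

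**Figure D4:**
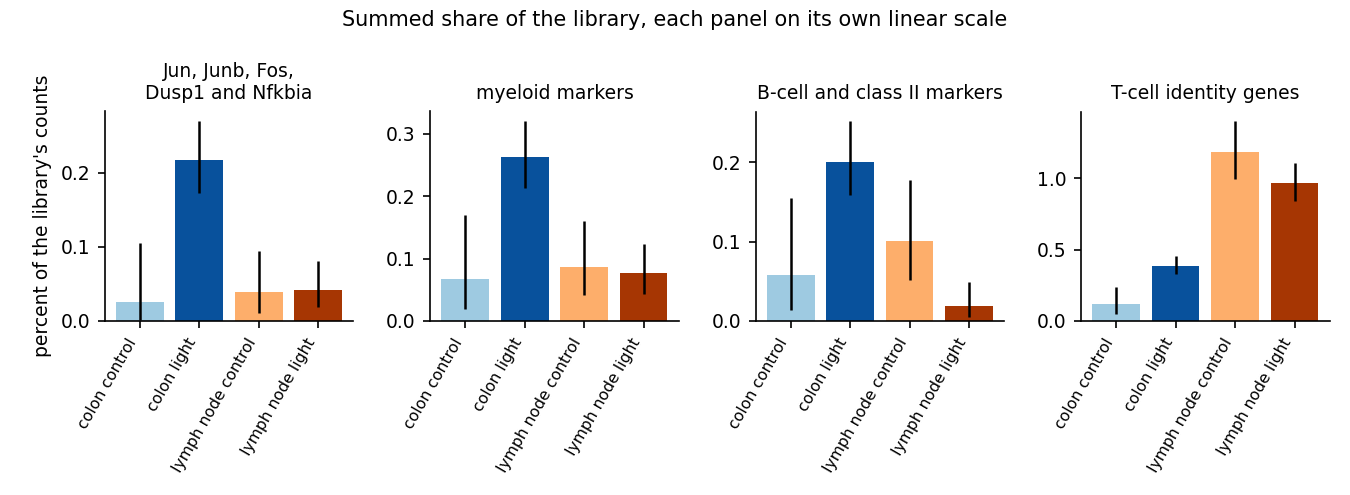
Summed share of the library's counts, in percent, for Jun, Junb, Fos, Dusp1 and Nfkbia, for 18 myeloid markers, 12 B-cell and class II markers and 19 T-cell identity genes (15 in the colon control) in the 4 libraries; bars are shares, lines exact 95% counting intervals, and each panel has its own linear scale from 0. The colon light bar is the tallest in the first 3 panels, and the lymph node bars are the tallest in the T-cell panel.

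The genes with the most similar profile to the summed level were found by the distance between centred log2 levels over the 4 libraries, among 297 genes with at least 20 molecule-equivalents. The nearest were Hspa5 (distance 0.58), Btg1 (0.70), Gramd3 (1.09), Akap13 (1.14) and Bcl2a1b (1.19). Nearest to Jun alone were Grk6 (0.56), Rora (0.70), Ptpn22 (0.82), Wnk1 (0.88) and Sfpq (0.99). Grk6, a receptor kinase gene, had 732 CPM in the colon light, 81.4 CPM in the node light, 72.1 CPM in the node control and 0 in colon control, the same order of libraries as for Jun. The 4 points of each profile share depth, and the nearness is a description.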

How the data were processed

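Sorted CD4 T cells were sequenced as poly(A)-primed 3′ libraries, per the labels' protocols. The submitters' processing notes name FastQC, STAR 2.5.1a and the build mm10, and a counting method was not given in the sources used here. Counts in the deposited tables are whole numbers per gene and barcode. The last line of the lymph node tables, which has no gene name and 50.0% of their counts, was left out.

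Column patterns shared by at least 2 genes were found, and their sums gave the line exactly for 95.6% of genes in colon control, 99.7% in colon light, 96.7% in node control and 99.2% in node light. Those lines hold 48.8%, 98.1%, 67.0% and 94.9% of the counts of named genes in the same order. The columns per molecule come from those lines alone, so the depth, CPM and intervals of the control libraries rest on a partial fit. What a pattern stands for is not known. Molecule-equivalents are counts over the size-weighted columns per molecule (70.8, 52.0, 84.3 and 50.6). Lines that repeat another table's (correlation above 0.5, missed by over 0.4 of their size) were left out. Log2 ratios of CPM used a prior of 0.5 molecule-equivalents, and intervals are Clopper-Pearson. Simulated data tested the recovery of patterns in the node control. They also tested the coverage of intervals, for genes of at least 20 molecules over both libraries and not for fewer. Those molecules were drawn on the fitted patterns, so the partial fit of the control libraries was not tested. Minimums were 20 and 5 molecule-equivalents, and the size limit 2-fold. A sheet names 16 barcodes as replicates, 3 for each colon group and 5 for each lymph node group. No replicates were formed from them, since they are columns of every table except colon control (0 of 16). Named genes are all members and, of other lists, those whose interval excluded 0 and up to 5 with the most molecule-equivalents; some genes the rule names are not reported here. Members and lists were chosen with earlier results of these data known. Promoters are from RefSeq, positions from GENCODE M21, and the starts of Junb, Jund and Dusp1 differ between them. Other scalings, totals, priors, filters, depths and barcodes were tried, in Python 3.11.15 with scipy 1.17.1.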

Additional observations from a re-analysis of the deposited data

How the results depend on the processing

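The summed log2 ratio of the genes in colon light over node light ranged from 2.14 to 2.68 over 10 alternatives, each with an interval above 0, and in colon light over colon control from 2.46 to 3.28 over 9. In the lymph node, light over control, it ranged from -0.13 with the deeper library thinned to 0.54 without the member of largest count, and colon control over node control from -0.61 to -0.12. Genes at 0 in one library moved most: the log2 ratio of Fos in colon light over node light ranged from 2.54 to 9.96, that of Dusp1 from 2.02 to 9.30, and in colon light over colon control that of Jun ranged from 2.81 to 10.67. Over 9 alternatives in colon light over node light, the interval lay above 0 in 9 for Jun and Fos, 8 for Nfkbia, 4 for Dusp1 and 2 for Junb. The other priors tried move a ratio but cannot move its interval, and in this comparison keeping repeated rows left it unchanged. For the sums and for single genes these alternatives repeat the main interval, so they add no support to such counts. Deposited sums taken as raw counts count each molecule repeatedly and give narrower intervals by construction: colon control over node control was then -0.61 (-0.94 to -0.30). Median-of-ratios scaling changed the log2 ratio of library sizes, and with it the bounds of the intervals, by 0.24 in light over control of the lymph node, 0.25 in colon light over node light, 0.13 in light over control of the colon and 0.36 in colon control over node control. The ratios themselves moved less because of the prior, those of the sums to 0.35, 2.56, 3.12 and -0.22.

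Counts of genes past 2-fold at 20 molecule-equivalents were 10 higher and 11 lower in node light over control, 38 and 58 in colon light over node light, 155 and 30 in colon light over control and 26 and 60 in colon control over node control. With median-of-ratios scaling the first had 18 higher and 7 lower, so that 72.0% in place of 47.6% were higher, and the second had 37 lower, with 56.0% in place of 39.6% higher. A minimum of 5 gave 168 and 125, 259 and 402, 694 and 129, and 96 and 284, and no minimum gave 2469 and 1688, 2267 and 3027, 3632 and 1804, and 1730 and 2881, since more genes of low count are tested. No paired analysis was possible because each group holds 1 library, and no library could be left out of a comparison of 2. The barcodes in common could not be used for the colon control. The depth of the colon control limits every comparison with it.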
